A study of Arabidopsis thaliana with 8 samples.

Results

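ATG8A, ATG8E and ATG8H are 3 of the 9 Arabidopsis thaliana genes for ATG8, the small ubiquitin-like protein of the autophagosome membrane. They were chosen by symbol in the probe annotation, with earlier results of these data known, out of 13356 genes with a probe set of their own. ATG8E (AT2G45170, probe set 266106_at) and ATG8H (AT3G06420, 258880_at) carry those symbols in the annotation. ATG8A (AT4G21980, 254346_at) is listed there as APG8A and was matched by its gene identifier through RefSeq. The annotation's APG8H is a different gene, AT3G15580, which RefSeq also calls ATG8I, and it was kept apart from ATG8H. Each of the 3 genes had 1 probe set in the annotation, named for 1 gene only, and all 3 passed the filter on low signals.

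The arrays measured total RNA from Ler (Landsberg erecta) cells in culture, stock NW20, at 24 °C. Both groups had sucrose, NAA (a synthetic auxin) and kinetin (a cytokinin) in Murashige and Skoog medium. The titles name 4 arrays fum and 4 arrays met. They expand neither name and call neither a control, so each difference runs from met to fum. The series is titled as a study of programmed cell death in plants. No label says that arrays came from separate cultures, so the p-values measure the spread between these samples only, and that spread may be technical.

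Autophagy encloses cytoplasm in a double membrane, the autophagosome, and delivers it to the vacuole for breakdown. ATG8 is joined to the lipid phosphatidylethanolamine on that growing membrane, where it recruits cargo receptors. The protease ATG4 trims most ATG8 proteins to expose a terminal glycine, ATG7 activates the trimmed protein, ATG3 passes it on, and a complex of ATG5, ATG12 and ATG16 places it on the lipid. In Arabidopsis the ATG8H and ATG8I proteins already end in that glycine. ATG8 protein is itself consumed with the autophagosome, and transcript levels such as those given here do not measure the flow of material through the pathway.

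ATG8E had the lower signal in fum, while ATG8A and ATG8H had the higher mean signal in fum, and none of these differences passed the test across all probe sets. Groups were compared with limma on log2 signal, and a probe set passed at a Benjamini-Hochberg adjusted p under 0.05. Of the 13647 probe sets tested, 351 passed, or 2.57%, and 0 of the 3 ATG8 genes did. At an unadjusted limma p under 0.05, ATG8A was higher and ATG8E lower in fum, against a background of 17.9% of probe sets in either direction. The genes were chosen with earlier results known, and neither these unadjusted p-values nor the permutation p-values below allow for that choice. The groups overlapped for all 3 genes, where 12.4% of the probe sets tested had groups without overlap.

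ATG8E read 377.3, 480.4, 543.7 and 439.0 signal units on fum replicates 1 to 4 and 767.2, 651.4, 560.8 and 527.6 on met replicates 1 to 4. Only fum replicate 3 reached above a met array, so fum was lower in 15 of the 16 pairs of a fum with a met array. The mean was 460.1 ± 70.005 for fum and 626.8 ± 107.3 for met (SD, n = 4). Met exceeded fum 1.36-fold (log2 -0.44, SE 0.14, 95% confidence interval -0.75 to -0.13, limma adjusted p = 0.127). An exact permutation test of ATG8E alone gave p = 0.0571, two-sided and unadjusted. With 4 arrays a group this test cannot go below 0.0286. A larger absolute difference was seen in 10.6% of the probe sets tested.

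ATG8A read 260.0, 287.5, 340.2 and 232.8 on fum replicates 1 to 4 and 254.7, 247.9, 167.4 and 204.0 on met replicates 1 to 4. Fum replicate 4 lay below met replicates 1 and 2, and fum was higher in 14 of the 16 pairs of arrays. The mean was 280.1 ± 45.9 for fum and 218.5 ± 40.8 for met (SD, n = 4), which is 1.29-fold (log2 0.36, SE 0.16, 95% confidence interval 0.021 to 0.71, limma adjusted p = 0.252). The exact permutation p was 0.114. A larger absolute difference was seen in 16.9% of the probe sets tested. Without met replicate 3, its lowest array, the log2 difference was 0.24 (adjusted p = 0.483).

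ATG8H was the dimmest of the 3 probe sets, which says nothing of its abundance, because each probe set responds with its own efficiency. It read 91.8, 68.0, 98.6 and 87.3 on fum replicates 1 to 4 and 87.5, 71.7, 70.8 and 59.8 on met replicates 1 to 4. Fum replicate 2 and met replicate 1 each fell among the arrays of the other group, and fum was higher in 12 of the 16 pairs. The mean was 86.4 ± 13.1 for fum and 72.5 ± 11.4 for met (SD, n = 4), which is 1.19-fold (log2 0.25, SE 0.16, 95% confidence interval -0.089 to 0.60, limma adjusted p = 0.436, exact permutation p = 0.229). Without met replicate 4, its lowest array, the log2 difference was 0.17 (adjusted p = 0.685).

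**Figure D1:**
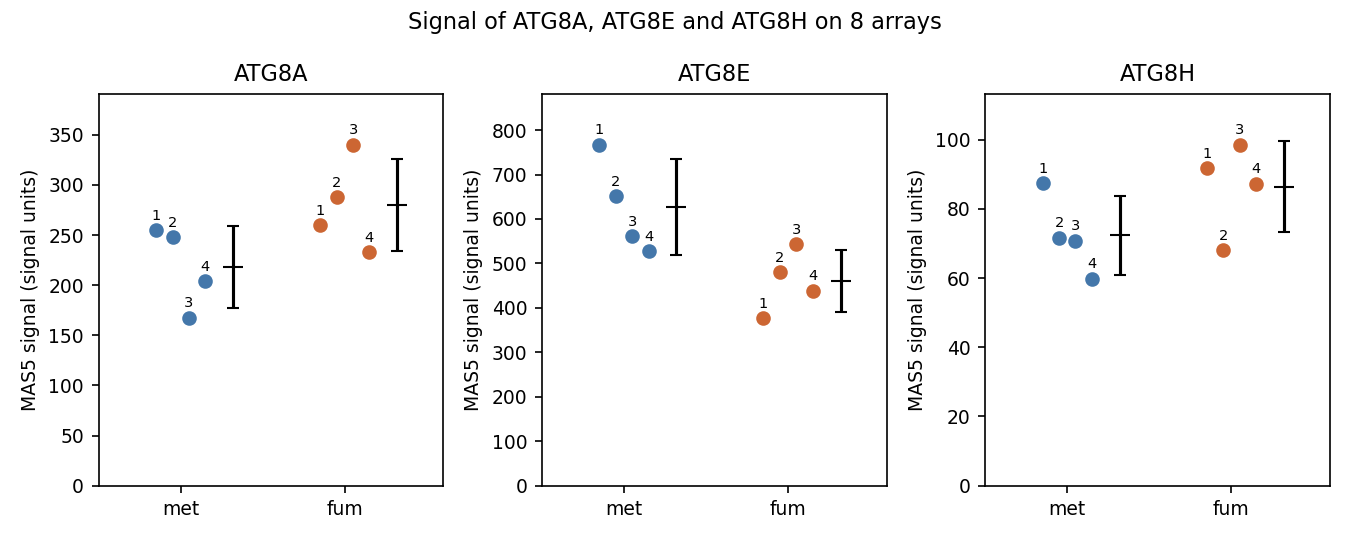
MAS5 signal, in signal units, of ATG8A, ATG8E and ATG8H on the 4 met and 4 fum arrays. Each point is 1 array with its replicate number, and the bar beside the points gives the mean and SD of the group. The ATG8E points of fum lie below those of met except that fum replicate 3, at 543.7, lies above met replicate 4, at 527.6, and the points of ATG8A and ATG8H overlap.

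Within each group the ATG8 genes were high on the same arrays. Met replicate 1 had the highest met signal for ATG8A, ATG8E and ATG8H, and for all 9 ATG8 genes, against 33.4% of the probe sets tested. Fum replicate 3 had the highest fum signal for the same 3 genes and for 8 of the 9, against 28.4%. These are descriptions of 9 related probe sets on shared arrays, and replicate numbers carry no order. The probe set for 25S ribosomal RNA read 157.6 on fum replicate 3 and 2806.2 to 3901.1 on the other fum arrays. In met it read 824.0 on replicate 1, 1305.0 on replicate 2, and 4491.2 and 4201.8 on replicates 3 and 4. Met replicate 1 also had 12.0 times as much signal at the 3′ as at the 5′ end of the actin control, where the other 7 arrays had 1.92 to 2.39. A second pair of actin control probe sets gave 15.8 on met replicate 1, 10.8 on fum replicate 3 and 5.69 to 8.40 on the other 6 arrays. The median signal of the arrays ranged from 33.1 to 41.5.

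With these arrays taken into account the ATG8 differences kept their signs, and some calls changed. With the log2 25S signal as a covariate, ATG8E passed as lower in fum (log2 -0.49, limma adjusted p = 0.0266), while ATG8A stood at 0.31 (adjusted p = 0.157) and ATG8H at 0.22 (adjusted p = 0.407). In that fit 3.83% of all probe sets passed. With the 3 arrays under 2000 signal units for 25S as a block against the other 5, ATG8A passed as higher (log2 0.47, limma adjusted p = 0.0269). In that fit ATG8E stood at -0.35 (adjusted p = 0.0646), ATG8H at 0.32 (adjusted p = 0.204), and 5.78% of all probe sets passed. Within the 5 arrays of high 25S signal the log2 differences were 0.49 for ATG8A, -0.34 for ATG8E and 0.33 for ATG8H, and within the 3 of low signal, with 1 fum array, they were 0.44, -0.38 and 0.32. None of these within-class values passed (adjusted p 0.0653 to 0.965), and the fit on 3 arrays assumes that the lone fum array varies like the met arrays. Without met replicate 1 the log2 differences were 0.44 for ATG8A, -0.34 for ATG8E and 0.35 for ATG8H (adjusted p 0.165, 0.187 and 0.262).

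**Figure D2:**
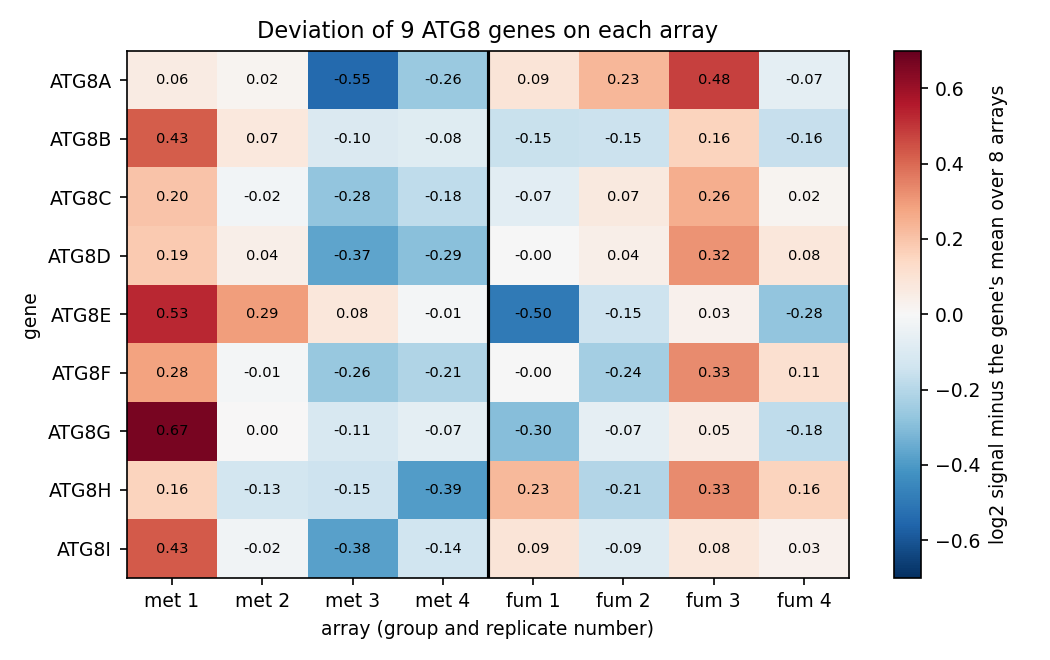
Log2 signal of the 9 ATG8 genes on each array, minus the gene's own mean over the 8 arrays. Columns are arrays, met on the left of the line and fum on the right, and red marks a higher and blue a lower value. ATG8E runs from 0.53 on met replicate 1 to -0.50 on fum replicate 1, and ATG8A from -0.55 on met replicate 3 to 0.48 on fum replicate 3.

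A ratio of 2 paralogues on the same array is free of any scale that the whole array shares, and it shows unequal change of the probe sets without saying which of them changed. The ratio of ATG8A to ATG8E signal was 0.689, 0.598, 0.626 and 0.530 on fum replicates 1 to 4 and 0.332, 0.381, 0.299 and 0.387 on met replicates 1 to 4. All 4 fum ratios lay above all 4 met ratios. On the log2 scale the ratio was -0.72 ± 0.16 for fum and -1.52 ± 0.18 for met (SD, n = 4), which differ by 0.81, or 1.75-fold. Leaving out each array in turn gave log2 differences between 0.73 and 0.87, and within the arrays of low and high 25S signal they were 0.82 and 0.83. This pair was taken up with the direction of both genes already known, so the ratio is a description and was not tested.

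The ratio of ATG8E to ATG8H also kept the groups apart, at 4.11 to 7.06 in fum and 7.92 to 9.09 in met. Its log2 difference was -0.70. The ratio of ATG8A to ATG8H ran from 2.67 to 4.23 in fum and from 2.36 to 3.46 in met, and the groups overlapped, with a log2 difference of 0.11. Of these 3 ratios, those that held ATG8E separated the groups.

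**Figure D3:**
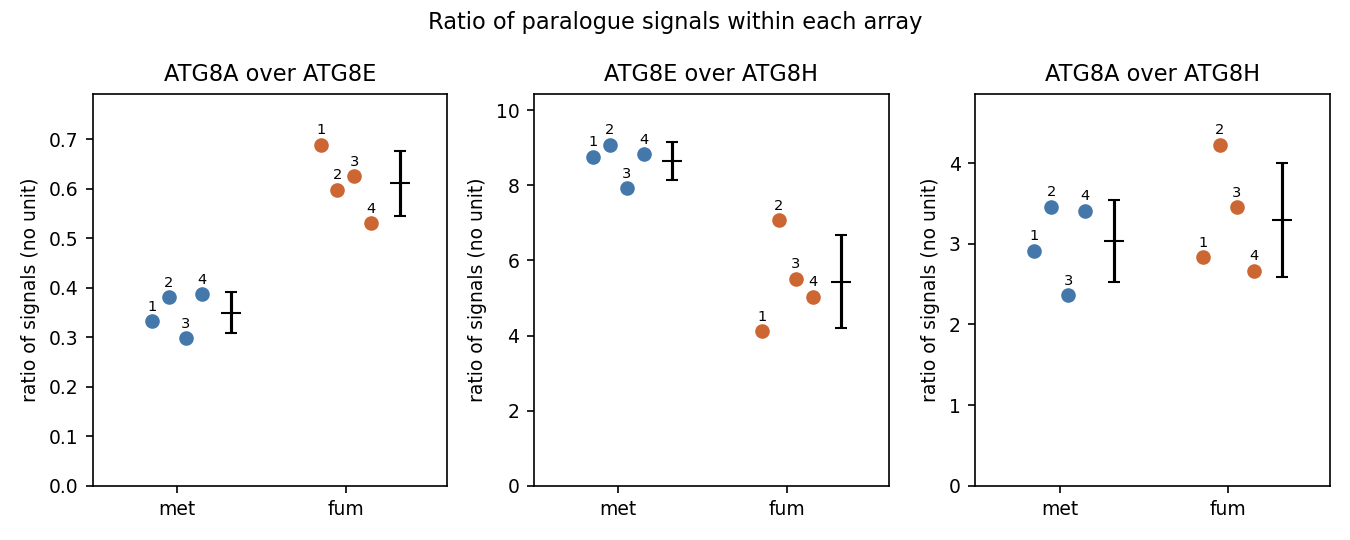
Ratio of signals of ATG8A over ATG8E, ATG8E over ATG8H and ATG8A over ATG8H within each of the 4 met and 4 fum arrays, with no unit. Points carry the replicate number, and the bar gives the mean and SD of the ratios. ATG8A over ATG8E is at most 0.387 in met and at least 0.530 in fum, while ATG8A over ATG8H overlaps.

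The background for such ratios was wide. Of the 13646 other probe sets tested, 27.8% had a ratio to ATG8E whose groups did not overlap, and 15.0% had such a ratio to ATG8A and 10.4% to ATG8H. Among the other ATG8 genes, the ratio to ATG8E separated the groups for 7 of 8, all but ATG8G. The ratio to ATG8A did so for 3 of 8 (ATG8B, ATG8E and ATG8G), and the ratio to ATG8H for 1 of 8, which was ATG8E. Ratios to the same gene share its values, so they are not separate observations. Of the probe sets tested, 9.53% had a larger rise than ATG8A. Taking the ratio to ATG8E shifts every log2 difference by the same amount, so that share says nothing of ATG8E.

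The 6 other ATG8 genes, encoding close relatives of the same protein, had smaller differences. The means of ATG8B and ATG8G were lower in fum, with log2 differences of -0.16 and -0.25 (limma adjusted p = 0.615 and 0.489). ATG8C, ATG8D, ATG8F and ATG8I had 0.14, 0.22, 0.10 and 0.058 (adjusted p from 0.445 to 0.885). The median over the 9 genes was 0.10, where the median of all probe sets tested was -0.0021, and 6 of the 9 means were higher in fum against 49.6% of all probe sets. Single arrays weighed on these smaller values. Without met replicate 1 ATG8B stood at -0.040 and ATG8G at -0.064, and ATG8C, ATG8F and ATG8I at 0.23, 0.21 and 0.21. Without met replicate 3 ATG8I turned to -0.060 and ATG8C, ATG8D and ATG8F stood at 0.068, 0.13 and 0.032. Without fum replicate 3 ATG8B stood at -0.23, ATG8C at 0.074 and ATG8F at 0.0093. ATG8F also moved to 0.199 without fum replicate 2 and 0.050 without met replicate 4, and ATG8I to 0.037 without fum replicate 1, 0.098 without fum replicate 2 and 0.022 without met replicate 4.

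Over the 8 arrays the log2 signal of ATG8E ran closest among its paralogues to ATG8G (Pearson r = 0.85) and ATG8B (r = 0.83). Those are the other ATG8 genes with lower means in fum. The difference between groups is part of each r, so this match of direction is not a separate observation. ATG8A ran closest to ATG8D (r = 0.90) and ATG8C (r = 0.88), and ATG8H to ATG8F (r = 0.84) and ATG8D (r = 0.74). ATG8E and ATG8A had r = -0.066, ATG8E and ATG8H -0.13, and ATG8A and ATG8H 0.57. These correlations are descriptions over 8 shared arrays and carry no p. Because the suffix of the 3 probe set names marks no shared design, each was read as its own gene, and signal from close paralogues on the same probes was not tested.

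Among 7470 other tested genes, those most like ATG8A over the 8 arrays were AT5G35050, AT5G17280 and AT5G53340, with Pearson r of 0.98, 0.97 and 0.97. The suffix of the AT5G35050 probe set marks a shared design, so its signal may not be of that gene alone. AT5G17280 averaged 173.4 ± 29.0 for fum and 130.0 ± 23.0 for met (SD, n = 4, log2 0.42, limma adjusted p = 0.184). Most like ATG8E were HSA32, a heat-stress-associated gene, AT4G32960 and AT3G16800, with r of 0.98, 0.97 and 0.97. HSA32 averaged 142.3 ± 19.1 for fum and 197.2 ± 25.9 for met (SD, n = 4, log2 -0.47, limma adjusted p = 0.0871). Most like ATG8H were AT3G17780, AT1G78810 and AT2G31945, with r of 0.98, 0.96 and 0.96. No chance level was set for these values of r, and none of these 9 genes passed the test between groups.

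The machinery that joins ATG8 to the membrane, and the complexes upstream of it, had few genes with a probe set listed for them alone. The annotation listed no gene for 8730 probe sets, so a gene without one may still be measured by an unnamed probe set. Of 54 genes in 7 lists, 21 had a probe set of their own and 19 were tested, the 9 ATG8 genes among them. At a limma adjusted p under 0.05, 0 rose and 0 fell, where 2.57% of all probe sets tested passed. At an unadjusted limma p under 0.05, 2 were higher and 1 was lower, where 8.87% and 8.98% of all probe sets were. ATG3, ATG4B and ATG16, of the conjugation steps, had log2 differences of 0.21, 0.22 and 0.17 (limma adjusted p from 0.409 to 0.489). In the ATG1 kinase complex, which starts the autophagosome, ATG101 had 0.31 (adjusted p = 0.247) with 87.6 to 113.5 in fum and 65.3 to 85.4 in met. The groups did not overlap for 2 of the 19 genes, ATG101 and ATG1B, against 12.4% of all probe sets tested. ATG1A, ATG1B and ATG1C had 0.024, 0.12 and 0.199, and ATG1T and ATG13B lay below the filter signal of 21.1. In the lipid kinase complex ATG14A and VPS38 had 0.19 and 0.25, and SH3P2, a membrane-shaping protein, had 0.34 (adjusted p = 0.282). ATG1C and ATG14A each had 2 probe sets of their own. Only the probe set of higher mean log2 signal was read for each, and the difference of the other is not given here. The 10 tested genes outside the ATG8 family all had higher means in fum, against 49.6% of all probe sets. Their log2 differences ran from 0.024 to 0.34, with a median of 0.20. They were read on the same 8 arrays, so they are not 10 separate observations. The sign of ATG1A turned in 9 of the 21 alternative fits, quantile normalization and median centring among them, and that of ATG14A in 2. Single arrays weighed on these values too. Without met replicate 1, its lowest met array, ATG101 stood at 0.22. On the same omission ATG4B stood at 0.075, VPS38 at 0.12, ATG1C at 0.12 and ATG14A at 0.081. Without fum replicate 1 ATG1C stood at 0.10, SH3P2 at 0.21 and ATG14A at 0.32, and without fum replicate 3 ATG3 stood at 0.12. Over all omissions ATG14A ran from 0.020 to 0.33 and ATG1A from -0.042 to 0.097. ATG8E had the lowest value of the 19.

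**Figure D4:**
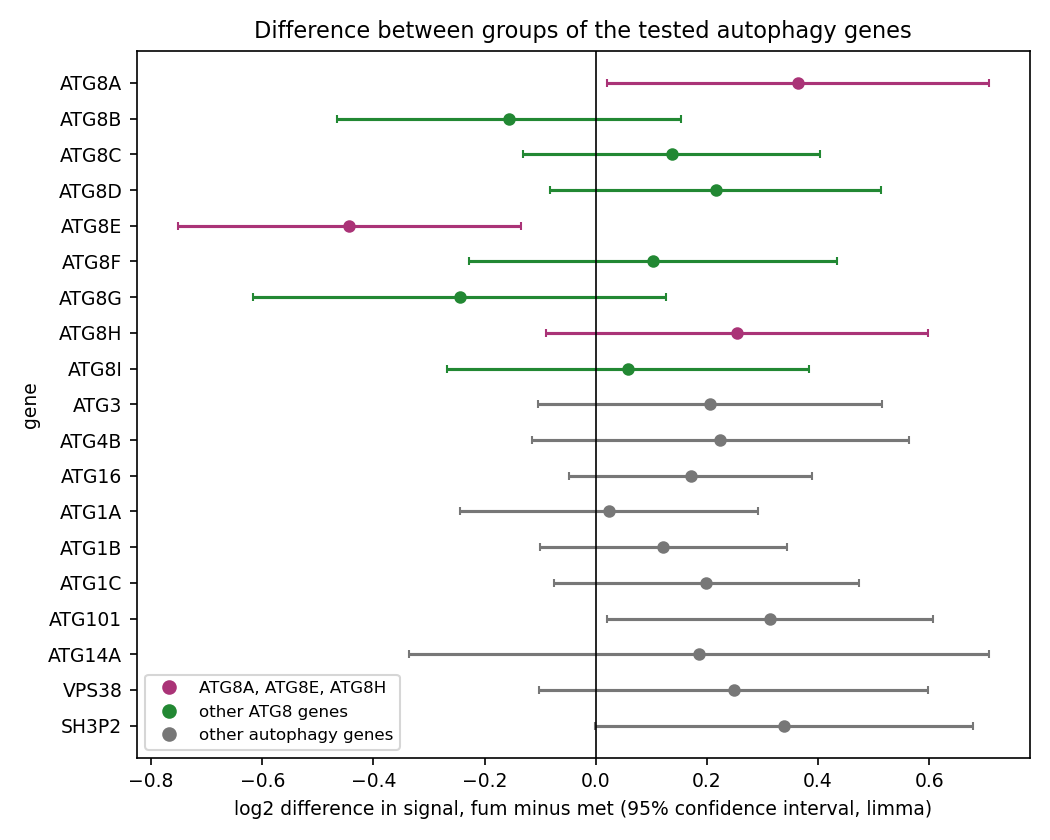
Log2 difference in signal between fum and met, with its 95% confidence interval from limma, for the 9 ATG8 genes and the 10 other tested autophagy genes. ATG8E, at -0.44, has an interval below 0 and ATG8A, at 0.36, and ATG101, at 0.31, have intervals above 0, before any adjustment over the probe sets tested.

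Of the regulators of autophagy, RAPTOR1B and RAPTOR1A, subunits of the nutrient-sensing TOR kinase complex, had log2 differences of 0.399 and -0.017 (limma adjusted p = 0.304 and 0.977). Without met replicate 1 RAPTOR1B stood at 0.22, and RAPTOR1A ran from -0.19 to 0.074 over all omissions. Of the sugar starvation genes, PPDK and IVD had -0.94 and -0.21 (adjusted p = 0.336 and 0.548), and -0.32 and -0.037 without fum replicate 2. Markers of other cell types with a probe set of their own in the annotation were few. RCA, the 1 of 6 leaf cell markers with a probe set of its own, read 382.7 to 464.4 in fum and 470.5 to 588.3 in met (log2 -0.29, limma adjusted p = 0.155), lower in fum like ATG8E, and its part in the ATG8E values was not tested. EXPA7, the 1 of 4 root hair markers with a probe set listed, averaged 16.7 in fum and 14.2 in met, below the filter. The annotation listed no marker of dividing cells, tracheary elements or seed cells with a probe set of its own. The label of cell culture was therefore not checked against them. In bulk RNA, fewer cells of a type and less RNA per cell cannot be told apart.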

How the data were processed

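The authors deposited MAS5 signal values for 8 arrays, per the submitters' processing notes, which give no version. Signals are linear, and no further step by the authors is given in the sources used here. Symbols came from the platform annotation, updated by gene identifier through RefSeq (TAIR10.1), where 13436 of 13513 probe sets with 1 gene matched. Another 503 had several genes and were given no name, and 8730 had none listed. A gene with several probe sets of its own was read by its probe set of highest mean log2 signal. No coordinates or sequences are given.

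The 93 values of 0 were raised to 0.1, signals were taken to log2 with no further normalization, 64 control probe sets were left out, and probe sets with a mean above the 40th percentile (a signal of 21.1) were tested, 13647 of 22746. The fum and met arrays were set against each other with limma 3.58.1 under R 4.3.3 (eBayes with trend, no term but group). Tests were two-sided, and p-values were adjusted over every tested probe set by the Benjamini-Hochberg method. The procedure was tested on simulated data, drawn independently for each probe set and array. Effects shared by a whole array were not simulated. The number of arrays limits the precision.

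Members and gene lists were chosen with earlier results of these data known. Named genes are the 3 members, tested genes of the autophagy lists, up to 3 per other list, and the 3 genes most correlated with each member. Alternatives were other normalizations, filters, variance models, array weights, the replicate block, leaving out each array and terms for 25S signal.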

Additional observations from a re-analysis of the deposited data

Results flagged for a closer look

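In 54 groups of 4 arrays (the tested autophagy genes and regulators, a few other list genes and the ratios of the 3 ATG8 genes), the highest or lowest array stood far from the other 3 on 3 occasions, by a Dixon criterion that chance alone meets in about 1 of 20 groups. ATG8B read 130.4 on fum replicate 3 and 104.4 to 105.3 on the other fum arrays. On met replicate 1 ATG8G read 255.1, where the rest of met read 148.9 to 160.8. On the same array ATG101 read 65.3, where the rest of met read 84.6 to 85.4. None of the arrays of ATG8A, ATG8E and ATG8H, and none of their ratios, met the criterion.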

How the results depend on the processing

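ATG8A and ATG8H were higher and ATG8E lower in fum in all 21 alternative fits. Several of these fits cannot move a log2 difference and left it as it was. They are the changes of filter, the fit without the trend, the robust fit and the replicate block. The ratio of ATG8A to ATG8E kept its sign, which follows from the signs of ATG8A and ATG8E. ATG8A passed only with the 25S block (0.47) and ATG8E only with the 25S covariate (-0.49), and ATG8H passed in none (log2 0.17 to 0.40, the highest with array weights). Leaving out each array gave 0.24 to 0.45 for ATG8A, -0.53 to -0.34 for ATG8E, 0.17 to 0.36 for ATG8H and 0.73 to 0.87 for the ratio of ATG8A to ATG8E. Autophagy genes called numbered 0, and 1 with array weights (SH3P2), with the 25S covariate or with the 25S block, and 0 whichever array was left out. The 351 probe sets called became 116 after centring on the array median, 164 without the trend, 1323 with array weights, 789 with the 25S block, 12 and 575 within the arrays of low and high 25S signal, and 112 to 415 when arrays were left out, with 175, 168 and 112 without fum replicates 1, 3 and 4 and 154 and 151 without met replicates 3 and 4. The replicate block gave 115 calls and changed no ATG8 call (adjusted p = 0.384, 0.258 and 0.526 for ATG8A, ATG8E and ATG8H). Same-numbered arrays had deviations from their group means correlated at -0.17, -0.30, -0.47 and 0.14. Such correlations cannot show whether arrays of the same number shared a culture or a processing step. The cause of these moves was not tested. No member had a second probe set in the annotation, so the mean of several was not run.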
